A study of Caenorhabditis elegans with 2 samples.

Results

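The yolk uptake and egg coat genes of Caenorhabditis elegans were followed here through a genome-wide map of TBP-1, the TATA-binding protein of the worm. They are 5 genes, rme-2, cbd-1, egg-1, egg-2 and egg-3, chosen by symbol from the 19973 protein-coding genes of the WBcel235 annotation (the assembly also named ce11), and all 5 symbols were found. The map comes from chromatin immunoprecipitation and sequencing, in which an antibody against GFP recovers DNA bound by a GFP-tagged protein. Per the labels, the 2 biological replicates of the single group were whole young adults of strain OP746, mixed in sex and 65 hours old, synchronised by bleaching and starvation at the first larval stage. The genotype is unc-119(tm4063) with the integrated transgene wgIs746, which carries tbp-1 fused to TY1, EGFP and 3xFLAG tags beside a functional unc-119. It lists no change to the worm's own tbp-1 gene. There is no second condition, so every comparison below is between genes or positions in the same animals, and no test between groups is given.

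Peaks were read from 4 lists: 1 for each replicate and 1 for both replicates pooled, with 30000 peaks each, background included, and a list of 3862 reproducible peaks. A summit is the position of highest signal within a peak, and its distance to an annotated 5' end is written here as negative when it lies upstream. A rank of 1 is the strongest signal of a list. Read depth is unknown, since the lists carry no read totals. In whole animals, a few strongly bound cells and many weakly bound cells cannot be told apart.

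Oocytes of the worm take up yolk that the intestine secretes, and they carry a surface coat that receives the sperm and is rebuilt into the eggshell after fertilisation. RME-2 is the yolk receptor, a member of the low-density lipoprotein (LDL) receptor superfamily that brings yolk into the oocyte by clathrin-mediated endocytosis. EGG-1 and EGG-2 are related membrane proteins of the oocyte surface with LDL receptor repeats, needed for fertilisation and eggshell formation. CBD-1 is a chitin-binding protein of the egg's outer coat, and EGG-3 is a protein tyrosine phosphatase-like protein of the oocyte cortex that takes part in the change from oocyte to embryo. TBP-1 itself belongs to the general machinery that all 3 nuclear RNA polymerases use to start transcription.

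The 5 promoters are shown because the TBP-1 results differ between them and because they share short sequences. Each stretch runs from 220 bases before to 30 bases after the annotated 5' end, is written in the direction of transcription, and was read from the RefSeq copy of WBcel235. It lies at chrIV:5469806-5470055 (plus strand) for rme-2, chrIII:5727960-5728209 (plus) for egg-1, chrIII:7060554-7060803 (minus) for egg-2, chrIV:11372771-11373020 (plus) for cbd-1 and chrII:10884412-10884661 (minus) for egg-3. Capitals mark the TATA box letters TATAAA on either strand. They also mark the splice acceptor letters TTTCAG on the strand of the gene. The run GCGGGA and, where present, the run GGCGCG are in capitals too.
rme-2: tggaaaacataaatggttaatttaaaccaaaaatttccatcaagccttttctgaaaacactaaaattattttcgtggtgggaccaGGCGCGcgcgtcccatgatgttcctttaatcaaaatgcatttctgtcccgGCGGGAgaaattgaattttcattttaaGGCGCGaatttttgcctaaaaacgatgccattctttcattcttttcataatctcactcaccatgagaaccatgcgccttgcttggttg
egg-1: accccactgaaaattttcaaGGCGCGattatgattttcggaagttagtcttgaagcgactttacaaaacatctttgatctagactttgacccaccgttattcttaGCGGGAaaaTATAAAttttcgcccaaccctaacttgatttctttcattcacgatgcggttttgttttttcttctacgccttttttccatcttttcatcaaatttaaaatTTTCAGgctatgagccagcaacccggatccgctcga
egg-2: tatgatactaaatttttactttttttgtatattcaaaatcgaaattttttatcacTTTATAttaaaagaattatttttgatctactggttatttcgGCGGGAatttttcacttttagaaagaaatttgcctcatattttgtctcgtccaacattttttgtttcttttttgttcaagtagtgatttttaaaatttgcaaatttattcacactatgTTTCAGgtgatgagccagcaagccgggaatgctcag
cbd-1: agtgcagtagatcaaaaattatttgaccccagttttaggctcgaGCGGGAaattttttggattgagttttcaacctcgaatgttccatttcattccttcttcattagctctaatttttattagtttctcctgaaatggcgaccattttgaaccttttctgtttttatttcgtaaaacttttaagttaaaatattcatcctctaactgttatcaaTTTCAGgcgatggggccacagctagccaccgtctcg
egg-3: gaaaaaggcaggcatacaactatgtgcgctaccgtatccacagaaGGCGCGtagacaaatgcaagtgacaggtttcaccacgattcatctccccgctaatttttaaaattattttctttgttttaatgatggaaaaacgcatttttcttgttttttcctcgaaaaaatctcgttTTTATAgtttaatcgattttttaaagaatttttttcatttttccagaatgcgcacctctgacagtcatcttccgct

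A reproducible TBP-1 summit lay within 500 bp of an annotated 5' end in 3 of the 5 genes: rme-2, egg-1 and egg-3. Over all protein-coding genes 10.2% had one (2035 of 19973), and such genes are called occupied here. The cbd-1 promoter held weak summits only, and egg-2 had no summit of any list within 1000 bp of the gene. All 3 promoter summits lay upstream, and no other gene had a 5' end within 500 bp of them. Every member has a very short annotated leader: the start codon follows the annotated 5' end of the longest transcript by 3 bp in rme-2, cbd-1, egg-1 and egg-2, and by 1 bp in egg-3. How common such leaders are among all protein-coding genes was not measured.

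**Figure D1:**
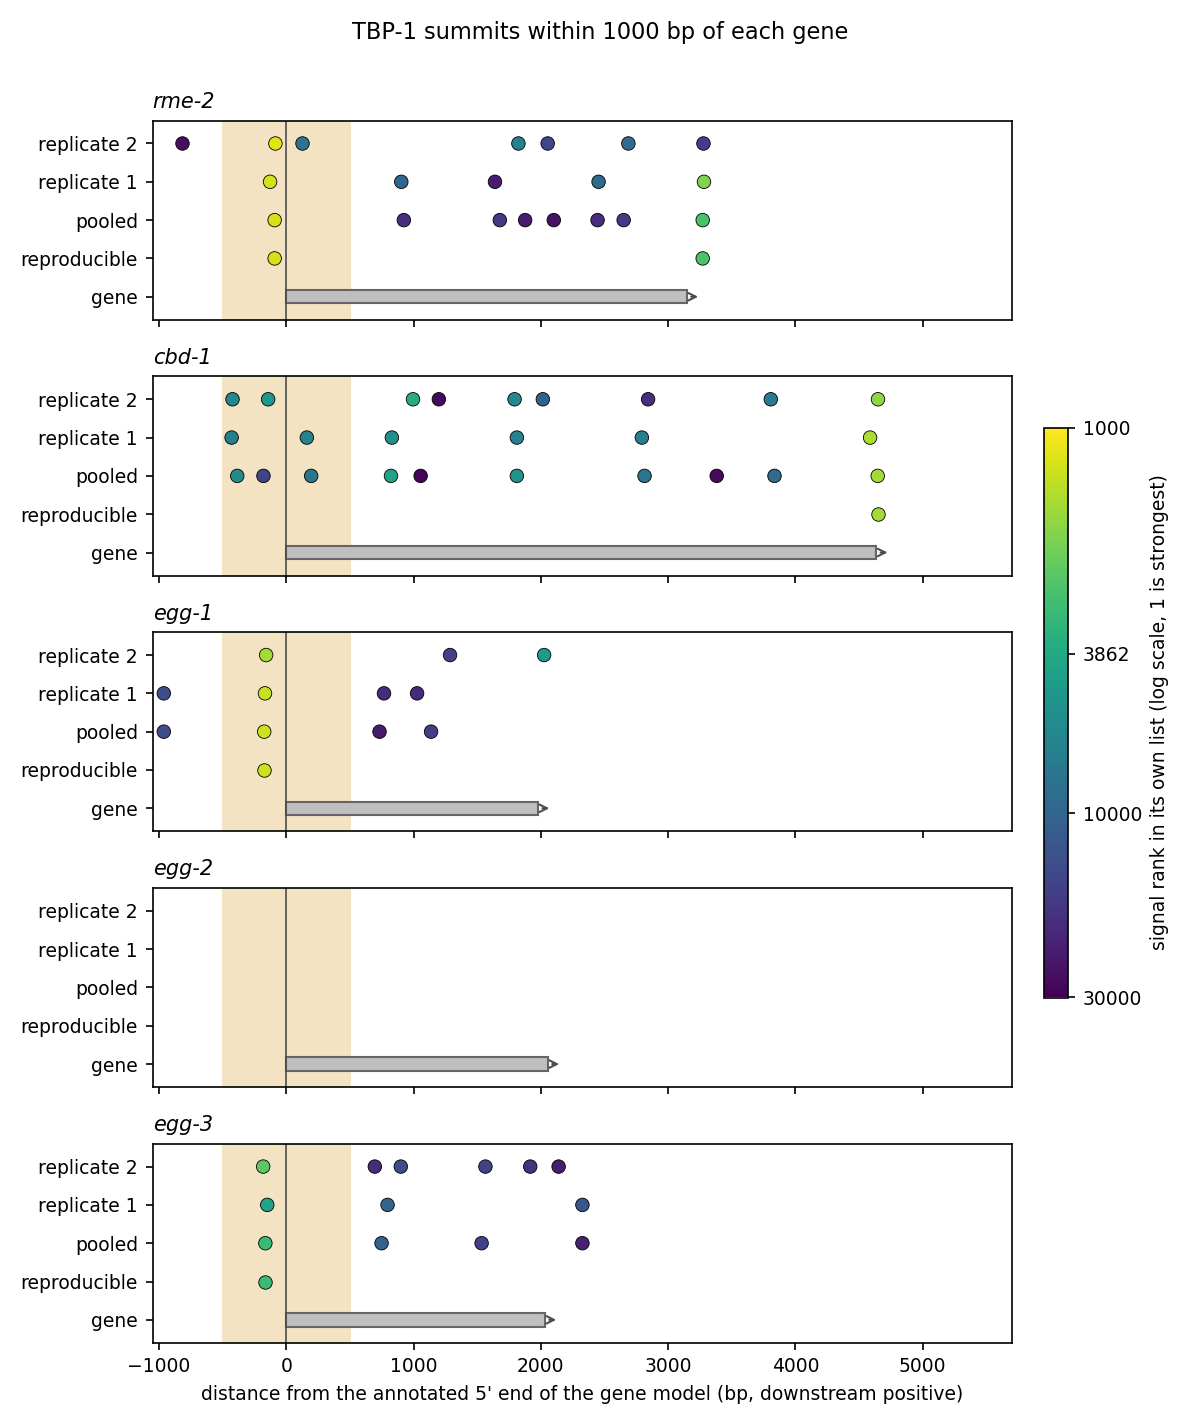
Summits of the 4 peak lists over each of the 5 genes and 1000 bp beyond them, against the distance from the 5' end of the gene model in bp; grey bars are gene models read from left to right, the shaded band is 500 bp to each side of the 5' end, and the colour gives the signal rank in the summit's own list on a log scale. A reproducible summit stands in the band of rme-2, egg-1 and egg-3, cbd-1 has its reproducible summit just past its 3' end, and the egg-2 panel is empty.

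The yolk receptor gene rme-2 (WBGene00004374, chromosome IV, 5470026 to 5473174, plus strand, 7 exons in the longer transcript) had the strongest promoter summit of the set. The reproducible peak spanned 5469841 to 5470024 and was 184 bp wide. Its summit lay at -91 bp with rank 1243 in the reproducible list and the same rank in the pooled list. Every reproducible summit at the members had the same position and rank in the pooled list, so the pooled list is no separate support. In replicate 1 the summit lay at -127 bp with rank 1257, and in replicate 2 at -85 bp with rank 1171. The mean position was -106.0 bp ± 29.7 (SD, n = 2) and the mean rank 1214.0 ± 60.8 (SD, n = 2). The replicates therefore put the peak at nearly the same rank, while their summits were 42 bp apart. Among the 2035 protein-coding genes with a reproducible summit, 77.7% had a weaker one, and 79.5% had replicate summits no farther apart. A shorter annotated transcript starts inside the gene, at 5470314. The same reproducible summit is the nearest to that start as well, at -379 bp, and no separate reproducible summit was listed for it. In replicate 2 alone a weaker summit, of rank 8087, lay between both starts, 160 bp upstream of the inner one.

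The oocyte surface genes egg-1 and egg-2 differed in every list. In egg-1 (WBGene00015083, chromosome III, 5728180 to 5730159, plus strand, 5 exons) the reproducible peak spanned 5727912 to 5728079, with its summit at -173 bp and rank 1289. Replicate 1 had its summit at -167 bp with rank 1333, and replicate 2 at -158 bp with rank 1581. The mean position was -162.5 bp ± 6.36 (SD, n = 2) and the mean rank 1457.0 ± 175 (SD, n = 2). The 2 replicate summits were 9 bp apart, where the median over protein-coding genes with a reproducible summit was 18 bp. In both replicates egg-1 ranked below rme-2, at 1333 against 1257 in replicate 1 and at 1581 against 1171 in replicate 2. Of the occupied protein-coding genes, 75.9% had a weaker summit than egg-1.

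In egg-2 (WBGene00019811, chromosome III, 7058527 to 7060583, minus strand, 5 exons) there was no summit in the gene or within 1000 bp of it, even among the background peaks. The nearest pooled summit lay 7079 bp upstream, and it was the nearest reproducible one too, with rank 3378. Replicate 1 had its nearest summit 7080 bp upstream and replicate 2 had it 7024 bp upstream. Downstream of the gene the next pooled summit was 25083 bp away, so that 34218 bp around egg-2 held none. The length of such stretches at other genes was not measured. Of all protein-coding genes 27.4% had their nearest pooled summit as far away as egg-2 or farther, and 47.3% had no pooled summit in the gene or within 1000 bp. The sequence around the egg-2 5' end is not repeated in the genome: none of its 972 words of 30 bases (500 bp to each side) occurred a second time, a count of 0 that egg-1, rme-2 and cbd-1 share. In egg-3, 11 of 972 words did (1.13%).

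The 2 paralogs are alike in their coding parts and less so in their promoters. An end-to-end alignment of the coding sequences of egg-1 (1653 bp) and egg-2 (1644 bp) had 70.3% identical columns, against 47.7% for egg-1 and egg-3, which are not related. The promoters, from 250 bp before to 50 bp after the 5' end, had 54.5% identical columns between egg-1 and egg-2. The pairs of egg-1 with cbd-1, egg-3 and rme-2 gave 51.1%, 47.8% and 46.3%. Of these, rme-2 encodes a protein of the LDL receptor superfamily, and its coding sequence had 40.1% identical columns with egg-1. The gene upstream of egg-1 is wrm-1, a beta-catenin gene on the same strand that ends 1064 bp before it. Upstream of egg-2 lies R01H2.4, also on the same strand, with a gap of 439 bp.

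The egg coat gene cbd-1 (WBGene00010351, chromosome IV, 11372991 to 11377627, plus strand, 10 exons) had no reproducible summit near its 5' end. The pooled list held weak promoter summits, at -385 bp with rank 5949, at -179 bp with rank 15104 and at 196 bp with rank 8083. A pooled summit within 500 bp, background included, was found for 4 of the 5 members, all but egg-2, and for 35.8% of all protein-coding genes. In replicate 1 the summits near the cbd-1 end lay at -429 bp (rank 6993) and 162 bp (rank 6588), and in replicate 2 at -422 bp (rank 6122) and -142 bp (rank 4988). The farther upstream summit was thus listed in both replicates at nearly the same place, while the other one lay on opposite sides of the annotated end. Their −log10 q values ranged from 1.76 to 2.39 in the replicate lists. The promoter summits of rme-2, egg-1 and egg-3 stood at the maximum of their lists (4.01 in replicate 1 and 3.78 in replicate 2). That maximum is a ceiling, shared by 5120 of the 30000 peaks of replicate 1 and 3014 of the 30000 of replicate 2. The upstream neighbour sec-31, which encodes a vesicle coat protein, is transcribed away from cbd-1, and the 5' end of its gene model lies 1198 bp before cbd-1.

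The cortical gene egg-3 (WBGene00009701, chromosome II, 10882408 to 10884441, minus strand, 6 exons) had a weaker promoter summit. The reproducible peak spanned 10884440 to 10884769, the most frequent width of 330 bp, with its summit at -164 bp and rank 3003. In replicate 1 the summit lay at -149 bp with rank 4194, and in replicate 2 at -181 bp with rank 2359. The mean position was -165.0 bp ± 22.6 (SD, n = 2) and the mean rank 3276.5 ± 1298 (SD, n = 2). The position repeated within 32 bp, but the rank did not: in replicate 1 the peak falls outside the 3862 strongest. Among the occupied protein-coding genes 23.2% had a weaker summit than egg-3, so it belongs to the lower part of the list, unlike rme-2 and egg-1. The summit, at 10884605, lies in the 263 bp between egg-3 and F44F4.3, a gene upstream on the same strand. The 3' end of F44F4.3, at 10884705, is nearer to the summit than the egg-3 5' end is. Which gene the summit belongs to was not tested. With the 3862 strongest peaks of each replicate in place of the reproducible list, 2 members were occupied in replicate 1 (rme-2 and egg-1) and 3 in replicate 2 (rme-2, egg-1 and egg-3), beside 10.1% and 9.6% of all protein-coding genes.

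**Figure D2:**
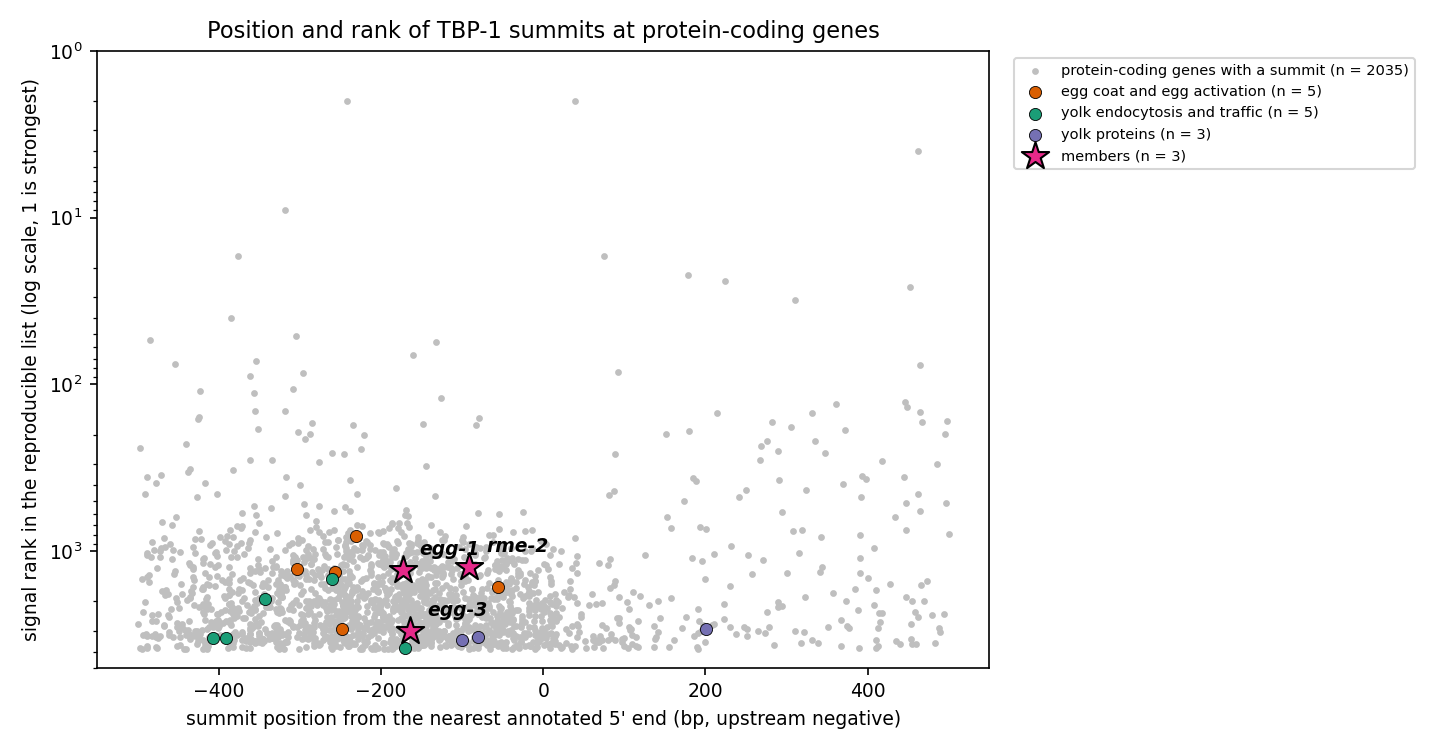
Position of the nearest reproducible summit in bp from the annotated 5' end against its signal rank on a log scale, for the 2035 protein-coding genes with a summit within 500 bp (grey), for the occupied genes of 3 related lists (coloured circles) and for the 3 occupied members (stars). rme-2 and egg-1 lie close together at ranks 1243 and 1289, and egg-3 lies lower at 3003; all 3 are upstream of the annotated end.

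The positions of the 3 promoter summits fell within the range common to occupied genes. The median over the 2035 genes was -176 bp, with an interquartile range from -287 to -61 bp, and the members lay at -91, -173 and -164 bp. Their ranks lay on both sides of the median of 2117.

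Reproducible summits also stood just past the 3' ends of rme-2 and cbd-1; 3' ends were examined after the summits had been seen. The cbd-1 peak spanned 11377473 to 11377802 with its summit 11 bp past the end of the gene model. It had rank 1611 in the reproducible list, rank 1524 in replicate 1 and rank 1774 in replicate 2, and in each list it was stronger than any summit near the cbd-1 5' end. In replicate 1 the summit lay inside the gene, at -49 bp from its end and in the UTR, and in replicate 2 it lay 13 bp past the end. The rme-2 peak spanned 5473133 to 5473462 with its summit 124 bp past the gene and rank 2638. Its replicates disagreed in rank: 1907 in replicate 1 against 16253 in replicate 2, where the −log10 q value was 0.37. The position repeated, at 134 and 130 bp past the gene. In total 2 of the 5 members had a reproducible summit within 500 bp of the 3' end, beside 5.81% of all protein-coding genes (1161 of 19973).

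Neither 3' summit lay within 500 bp of an annotated start. The nearest annotated 5' end of any gene was 1716 bp from the cbd-1 summit and 2984 bp from the rme-2 summit. Both genes face a neighbour on the opposite strand across the 3' side: fbxb-76, an F-box gene, 543 bp beyond cbd-1, and T11F8.4, 956 bp beyond rme-2. Of the 1161 protein-coding genes with a summit at the 3' end, 438 (37.7%) had it more than 500 bp from every annotated 5' end.

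**Figure D3:**
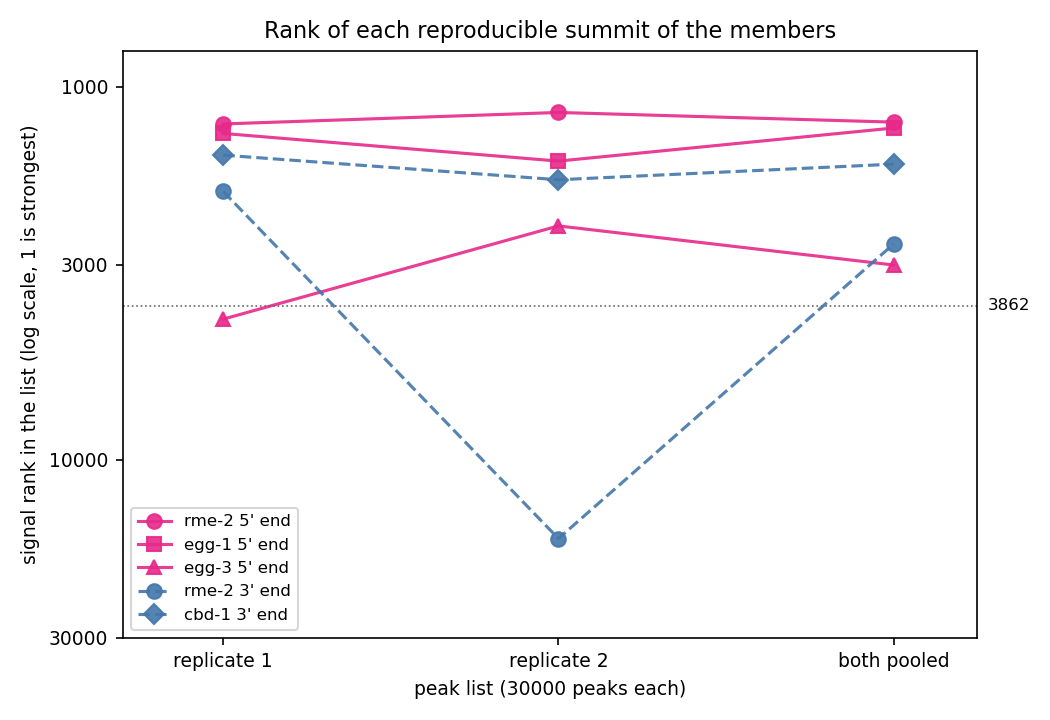
Signal rank (log scale, 1 is strongest) of the 5 reproducible summits at the members in replicate 1, replicate 2 and the pooled list of 30000 peaks each; solid lines are summits at 5' ends, dashed lines summits at 3' ends, and the dotted line marks rank 3862. The ranks of the rme-2 and egg-1 promoters and of the cbd-1 3' end stay between 1171 and 1774 in the 3 lists, while the rme-2 3' end moves from 1907 to 16253 between the replicates.

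Many weak summits were listed along rme-2 and cbd-1. The pooled list held 10 summits in cbd-1 and the 1000 bp on each side, and 8 for rme-2, where the median of all protein-coding genes was 1. For egg-1 and egg-3 it held 4 each. As many summits as cbd-1 were found in 1.85% of protein-coding genes and as many as rme-2 in 3.7%, and longer genes have more room for them. Per kb, rme-2 had 1.55 and cbd-1 1.51, densities reached by 1.43% and 1.78% of protein-coding genes. In replicate 1 the densities were 0.971 and 0.904, reached by 10.8% and 12.8% of genes, and egg-1 was denser than both there, with 1.01 per kb, reached by 9.85%. In replicate 2 the density of rme-2 and of cbd-1 was 1.36, reached by 2.49% and 2.53%. Replicate 2 was denser still over egg-3, with 1.49 per kb, against 0.744 in replicate 1. Inside rme-2 the pooled summits ranked from 16769 to 25644, all weak. Inside cbd-1 the strongest was an intronic summit 823 bp from the 5' end, with rank 4171, just outside the 3862 strongest peaks. Replicate 1 had its summit there at 830 bp with rank 5491, and replicate 2 had one in an exon at 996 bp with rank 3597.

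The TATA box letters lay near the summit in 1 of the 3 occupied members. TATAAA on either strand lay within 100 bp of the egg-1 summit, 67 bp downstream of it and at -106 bp from the annotated end, as seen in the sequence above, and not within 100 bp of the rme-2 or egg-3 summit. Of the 2035 windows at occupied protein-coding genes, 17.3% held a match. The promoter window ran from 250 bp before to 50 bp after the 5' end. In it TATAAA on either strand was matched in 4 of the 5 genes, all but cbd-1, beside 37.9% of all protein-coding promoters. Only the egg-1 match was on the strand of the gene. The matches in rme-2 (-250 bp), egg-2 (-165 bp) and egg-3 (-46 bp) were on the other strand. The rme-2 match stands at the upstream edge of the window, outside the stretch printed above. TATATA was matched in none of the 5, beside 12.4%. GATAA, the core of sites of GATA factors, was matched in cbd-1 and egg-2, both on the other strand, beside 57.6% of all promoters. A match is a run of letters and not a measured site.

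The annotated 5' ends of 3 members follow the splice acceptor letters TTTCAG. Many worm messenger RNAs receive a spliced leader at an acceptor upstream of the start codon, so that the annotated end can lie downstream of the point where transcription began, and TTTCAG is the worm's consensus at acceptors. In cbd-1, egg-1 and egg-2 the last 6 bases before the annotated end were TTTCAG, which was so for 12.3% of all protein-coding genes. In egg-3 they were TTCCAG, which shares the final CAG found at 22.1% of all ends and the final AG found at 27.6%. In rme-2 they were TCACTC. Distances from annotated ends are therefore not distances from measured starts of transcription.

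Each of the 5 promoters held GCGGGA or GGCGCG, on the strand of the gene in every case. These 2 runs were chosen after the promoter sequences had been read and searched on both strands, and they are given without a test. The letters of the first occur within the known binding site of E2F factors, which regulate genes of the cell cycle and, in the worm, of oocyte development. No E2F factor was measured here. GCGGGA started at -85 bp in rme-2, -115 bp in egg-1, -124 bp in egg-2 and -176 bp in cbd-1, and was not matched in egg-3. GGCGCG started at -135 and -58 bp in rme-2, at -200 bp in egg-1 and at -175 bp in egg-3, and was not matched in egg-2 or cbd-1. Of all protein-coding promoters, 6.49% held GCGGGA, 4.59% held GGCGCG, 10.5% held either and 0.601% held both, as rme-2 and egg-1 did. Among the 2035 occupied genes the share with either was 21.3%.

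Measured from the summits, GGCGCG lay within 50 bp in all 3 occupied members, at -44 and 33 bp in rme-2, -27 bp in egg-1 and -11 bp in egg-3, each counted to the first base. GCGGGA lay at 6 bp in rme-2 and 58 bp in egg-1. Of the windows of 50 bp to each side of the summits of occupied genes, 14.3% held GGCGCG. The run was picked by reading these promoters, and the stretches read hold the 3 summits. Its presence near them is therefore no separate support. Those windows are poor in A and T, with a median of 52.5% against 65.7% over all promoters, and the windows of the members had 53.5% in rme-2, 60.4% in egg-1 and 52.5% in egg-3. The part of base composition in these matches was not tested. The promoter of egg-2 was the richest of the 5 in A and T, at 71.7%, while the others ranged from 59.7% in egg-1 to 64% in egg-3. Neither run was matched within 100 bp of the 3' summits of rme-2 or cbd-1.

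Other genes of the egg coat and of egg activation were occupied in 5 of 11 cases, beside 10.2% of all protein-coding genes. These were cpg-1 (rank 812, summit at -231 bp) and cpg-2 (rank 1341, -257 bp), which encode chondroitin proteoglycans of the eggshell, egg-4 (rank 1274, -304 bp), which encodes a pseudophosphatase that binds the kinase MBK-2, chs-1 (rank 1632, -56 bp), the chitin synthase gene of the eggshell, and mbk-2 (rank 2933, -248 bp), a kinase gene of the oocyte-to-embryo change. The paralogs cpg-1 and cpg-2 were both occupied, unlike egg-1 and egg-2. The paralog of egg-4, egg-5, had its nearest reproducible summit at -594 bp, outside the window, with a pooled rank of 565. Another without one was egg-6, with its nearest reproducible summit at -11334 bp. With a window of 250 bp the list had 3 occupied genes, beside 6.38% of all protein-coding genes, and with 1000 bp 6, beside 13.5%. With the 3862 strongest peaks of replicate 2 it had 4, beside 9.6%, and with those of replicate 1 it had 5, beside 10.1%. Either GCGGGA or GGCGCG was matched in 3 of these 11 promoters, those of perm-2, cpg-1 and cpg-2, beside 10.5% of all protein-coding promoters. It was matched in 4 of 18 promoters of the yolk traffic list, 1 of 6 of the yolk proteins, 0 of 2 of the other LDL receptor family genes and 1 of 7 of the sperm genes.

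Genes for the endocytosis and traffic that follow yolk binding were occupied in 5 of 18 cases (27.8%), beside the same 10.2%. They were apb-1 (rank 1475, -260 bp), dpy-23 (rank 1929, -343 bp) and aps-2 (rank 3827, -171 bp), which encode adaptor subunits of clathrin coats, dyn-1 (rank 3331, -391 bp), the dynamin gene, and snx-3 (rank 3332, -407 bp), a sorting nexin gene. The dpy-23 summit was shared with R160.8 and the snx-3 summit with rad-54.L. With a window of 250 bp the count was 1 (aps-2), beside 6.38% of all protein-coding genes, and with 1000 bp it was 9, beside 13.5%. Neither rme-1, an endocytic recycling gene, nor rme-4, a regulator of yolk receptor traffic, had a reproducible summit within 500 bp. The nearest lay at -669 bp for rme-1 and 37410 bp for rme-4. For rme-4 each replicate list had a summit in reach, at -83 bp with rank 2611 in replicate 1 and at -68 bp with rank 2808 in replicate 2, while the nearest pooled summit was at 3810 bp.

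**Figure D4:**
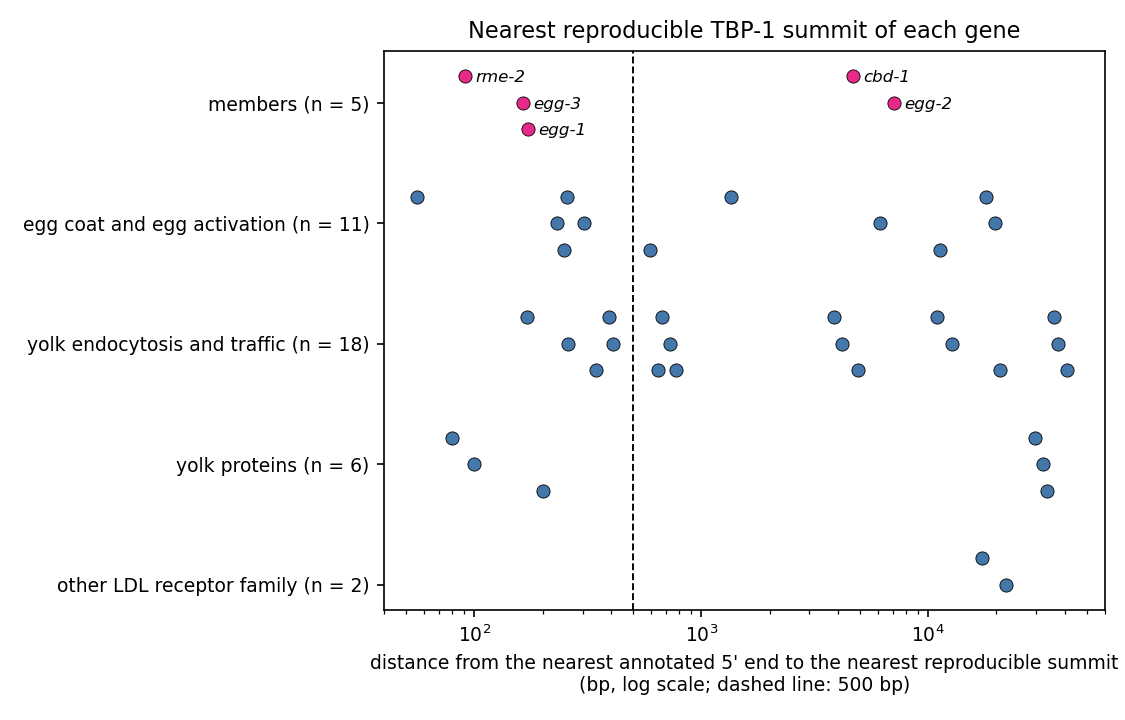
Distance in bp (log scale) from the nearest annotated 5' end to the nearest reproducible summit, 1 point for each gene, for the 5 members (labelled) and 4 related lists; points are spread vertically only to separate them, and the dashed line marks 500 bp. rme-2, egg-3 and egg-1 lie left of the line at 91, 164 and 173 bp, and cbd-1 and egg-2 lie right of it at 4647 and 7079 bp.

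Ligands, related receptors and the sperm side were read against the same share of 10.2%. Of the 6 yolk protein genes 3 (50%) were occupied: vit-1, vit-2 and vit-6 had a summit, at -80, -100 and 201 bp, with ranks 3285, 3415 and 2912, all weaker than rme-2. The vit-6 summit was shared with K07H8.16. Neither of the other LDL receptor family genes examined, lrp-1 and lrp-2, had one, with the nearest at -17189 bp and 22085 bp. Of 9 sperm genes needed for fertilisation, 7 were found by symbol and 2 (28.6%) had a summit, among them spe-9 at 291 bp with rank 372. The spe-9 summit was shared with C17D12.10 and with a tRNA gene, WBGene00014026, and tRNA genes carry TBP-1 as part of the RNA polymerase III machinery. Which of these genes the summit belongs to was not tested. Among the sperm genes without one were spe-36 and spe-38.

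Genes most like the members were found by the Euclidean distance over the signal percentiles in the pooled and both replicate lists and the summit position divided by 500 bp, among 2018 protein-coding genes with a summit in all of them. For rme-2 they were W02B12.11 (summit at -84 bp, rank 1196) and T13F2.6 (-98 bp, rank 1084). For egg-1 they were C17E4.6 (-176 bp, rank 1247) and Y48B6A.1 (-176 bp, rank 1223). For egg-3 they were snrp-3 (-163 bp, rank 3050) and Y110A7A.15 (-165 bp, rank 2730). These distances, from 0.00722 to 0.0285, rest on 2 replicates and say nothing of what the genes do.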

How the data were processed

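TBP-1 binding was measured by chromatin immunoprecipitation and sequencing in 2 replicates. Per the deposited file descriptions, the peak lists are on ce11: 1 for each replicate, 1 for both pooled, and 1 thresholded by IDR, the irreproducible discovery rate. They also name an alignment of control reads, not used here. No source used here names the aligner or peak caller. The signal values the authors deposited have no stated scale, so ranks within each list are given in their place. The −log10 q values are printed as deposited. Read depth is unknown, so no interval is given.

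Summits (start plus summit offset, written 1-based) were placed against the 5' ends of all transcripts of Ensembl release 115 (WBcel235). Genes with a reproducible summit at most 500 bp from a 5' end were called occupied. The placing was tested on simulated data. Sequences came from RefSeq's WBcel235 genome. Global alignments scored 1 for a match, -1 for a mismatch, -3 to open and -0.5 to extend a gap. Python 3.11.15, numpy 2.4.6 and Biopython 1.88 were used.

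The 5 genes, the related lists, the tests and the rule for named genes (members, neighbours and genes sharing a summit, occupied and up to 2 unoccupied genes of each related list, and the 2 most alike genes) were chosen with earlier results of these data known. The 3' ends and the runs GCGGGA and GGCGCG were chosen after seeing the data, as was perm-2, named for its promoter letters. The values of 1 occupied gene of the related lists are not reported here. Alternatives were windows of 250 and 1000 bp, the 1931 strongest peaks, each replicate's own strongest peaks, all pooled peaks, gene-model ends, nearest ends, peak intervals or centres, repeated intervals counted once, and a 50 bp motif window.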

Additional observations from a re-analysis of the deposited data

How the results depend on the processing

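The count of 3 occupied members was 3 with windows of 250 and 1000 bp, beside 6.38% and 13.5% of all protein-coding genes. It was also 3 with gene-model ends, nearest ends and peak intervals. It was 2 with the 1931 strongest peaks and with replicate 1 alone (rme-2 and egg-1 in both), beside 10.1% for replicate 1. With all pooled peaks, background included, it was 4 (cbd-1 added), beside 35.8%. For the ends, the intervals, the 1931 strongest peaks and the 3' alternatives no share of all protein-coding genes is given. The egg-3 offset of -164 bp was -181 bp without replicate 1 and turned to 11711 bp without replicate 2, because its peak ranked 4194 in replicate 1 and the next of the 3862 strongest lay downstream. The 3' count of 2 fell to 1 (cbd-1) with the 1931 strongest peaks and without replicate 1, and ranged from 1 to 2 over the replicates left out. With a window of 250 bp the egg coat and egg activation list had 3 occupied genes, the yolk traffic list 1 and the sperm list 1, beside 6.38% of all protein-coding genes. With 1000 bp the yolk traffic list had 9, beside 13.5%. In all, 57 of the recomputed values kept within the limits set for them, 12 moved and 1 reversed. The limits differed between results, so this tally does not measure stability. Member counts of 2 and 4 beside 3, and an egg-3 rank of 4194 beside 3003, were labelled as kept. An egg-1 offset of -158 bp beside -173 bp was labelled as moved. Motif counts of 0 that stayed at 0 are among the kept values. No paired analysis was possible because there is a single group. Depth is unknown, and 2 replicates limit every mean given.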
